A study of Mus musculus with 2 samples.

Results

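Genes of protein folding in the endoplasmic reticulum (ER) and of the unfolded protein response were followed by single-cell RNA sequencing in T cells of back skin and of lung from adult mice. The 36 genes were chosen by name as ER chaperones, protein translocation genes and unfolded protein response genes. All 36 were found by Ensembl identifier among the 27514 identifiers that the gene lists of both libraries share. The skin library came from Foxp3-CreERT2GFP C57Bl/6 mice and the lung library from Foxp3-GFP C57Bl/6 mice, of a strain that the labels name Tachilla. Both tissues were digested with collagenase, and cells positive for CD45, CD3, CD4 and GFP were sorted. GFP reports Foxp3, the lineage factor of regulatory T cells, and in the skin mice it is joined to CreERT2, a Cre recombinase that acts in the presence of tamoxifen. The labels name no treatment, and the number of animals behind each library is not given in the sources used here. There was 1 library per tissue, so no difference between skin and lung has a replicate check and none was tested. Strain, library, gene annotation and tissue differ together and cannot be told apart, as does sex, since Xist stood at 1229 CPM in skin against 0.0427 CPM in lung.

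Cells with at least 1 unique molecular identifier (UMI, a tag that counts 1 captured RNA molecule) of Cd3d, Cd3e or Cd3g were used, 6400 of 6601 skin barcodes and 8349 of 8730 lung barcodes. They held 15820166 UMIs in skin, a median of 2083.5 per cell, and 23434633 in lung, a median of 2384 per cell. Values are CPM (counts per 1000000), that is UMIs scaled to the library's total over its CD3 cells. Ranges in parentheses are 95% exact intervals from the UMI counts, which cover counting error only. Of the T cell genes, Cd3g stood at 1609.5 CPM in skin and 811 CPM in lung, and Cd4 at 165 CPM in skin and 109 CPM in lung. Foxp3 gave a UMI in 5.70% of skin cells and 3.62% of lung cells, against 1.49% of 67 skin cells and 1.37% of 292 lung cells without CD3 UMIs. At 1000 UMIs per cell these shares were 2.42% and 1.45% with CD3 against 1.49% and 0.844% without it. A check of the GFP sort by RNA therefore rests on few Foxp3 UMIs. Between the libraries 82 barcode sequences were shared. The scaling moved the centre of all genes: the median log2 ratio of skin over lung was 0.36 with library totals and −0.04 with median-of-ratios scaling.

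Proteins that a cell secretes or places in its membranes enter the ER through the translocon, are trimmed by signal peptidase, and are folded by chaperones and by enzymes that pair cysteines. When unfolded protein builds up, the sensors IRE1, ATF6 and PERK start the unfolded protein response. IRE1 splices Xbp1 mRNA, ATF6 is cut to release a transcription factor, and both raise chaperone and degradation genes. PERK phosphorylates eIF2α, which slows translation and favours ATF4 and its targets. T cells draw on this machinery when they are activated and make cytokines such as the products of Il10, Il13 and Areg, all secreted through the ER. Splicing of Xbp1 cannot be read from 3' UMI counts.

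The binding sequence shared by many of these genes is the ER stress response element (ERSE), read by ATF6 with NF-Y. Promoter sequences from RefSeq on GRCm38.p6, 250 bases before to 50 bases after each start, were matched by symbol for 31 of the 36 genes. Hyou1, Manf, Sec61a1, Ssr2 and Atf6 had no match. The letters of ERSE, CCAAT and CCACG with any 9 bases between them, on either strand, occurred in 8 of the 31, which are Hspa5, Hsp90b1, Dnajc3, Creld2, Calr, Canx, Pdia6 and Syvn1, against 0.119% of all 32851 promoters. ERSE-II, ATTGG and CCACG with any 1 base between them, occurred in Dnajb11 and Herpud1, against 0.0365% of all promoters, and did not overlap an ERSE match. The UPRE letters TGACGTGG occurred in 0 of the 31 and in 0.676% of all promoters. The composite ATF4 letters TGATGNAAN occurred in 2 of the 31, Herpud1 and Trib3, and in 3.95% of all promoters. Matches describe letters in these windows and not bound sites. The 250 bases before the start of 6 genes are shown because they carry these letters and, by the levels below, differ in skin over lung from 4.43-fold (Herpud1) to 1.18-fold (Dnajc3). They run 5′ to 3′ on the gene's strand, at chr2:34771840-34772089 (plus), chr10:86705445-86705694 (minus), chr12:17266339-17266588 (plus), chr8:94386179-94386428 (plus), chr8:84846932-84847181 (minus) and chr14:118937682-118937931 (plus). Capitals mark ERSE, or ERSE-II in Herpud1, on either strand.
Hspa5: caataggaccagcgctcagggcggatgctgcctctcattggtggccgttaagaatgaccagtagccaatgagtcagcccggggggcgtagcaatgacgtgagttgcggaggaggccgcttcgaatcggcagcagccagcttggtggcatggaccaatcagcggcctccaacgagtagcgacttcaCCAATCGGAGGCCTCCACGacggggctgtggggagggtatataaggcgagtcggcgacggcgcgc
Hsp90b1: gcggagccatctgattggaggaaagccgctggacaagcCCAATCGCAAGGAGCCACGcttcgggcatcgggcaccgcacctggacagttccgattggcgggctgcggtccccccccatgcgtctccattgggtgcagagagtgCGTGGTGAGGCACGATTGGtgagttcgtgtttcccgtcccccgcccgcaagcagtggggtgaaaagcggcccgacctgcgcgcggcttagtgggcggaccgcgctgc
Pdia6: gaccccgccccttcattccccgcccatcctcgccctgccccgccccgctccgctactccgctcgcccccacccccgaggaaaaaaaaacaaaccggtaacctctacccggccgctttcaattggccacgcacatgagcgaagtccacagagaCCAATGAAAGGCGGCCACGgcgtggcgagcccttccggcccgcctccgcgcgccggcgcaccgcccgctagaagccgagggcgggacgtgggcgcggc
Herpud1: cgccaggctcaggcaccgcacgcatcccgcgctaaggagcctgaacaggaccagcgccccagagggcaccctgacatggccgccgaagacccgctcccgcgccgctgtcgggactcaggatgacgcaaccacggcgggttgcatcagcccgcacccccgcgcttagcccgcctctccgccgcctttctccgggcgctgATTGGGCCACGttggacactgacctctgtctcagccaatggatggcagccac
Calr: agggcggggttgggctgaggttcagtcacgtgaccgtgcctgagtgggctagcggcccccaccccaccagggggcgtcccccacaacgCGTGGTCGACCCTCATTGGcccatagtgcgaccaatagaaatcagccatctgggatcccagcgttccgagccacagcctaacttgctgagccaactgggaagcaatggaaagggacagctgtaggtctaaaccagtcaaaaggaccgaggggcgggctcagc
Dnajc3: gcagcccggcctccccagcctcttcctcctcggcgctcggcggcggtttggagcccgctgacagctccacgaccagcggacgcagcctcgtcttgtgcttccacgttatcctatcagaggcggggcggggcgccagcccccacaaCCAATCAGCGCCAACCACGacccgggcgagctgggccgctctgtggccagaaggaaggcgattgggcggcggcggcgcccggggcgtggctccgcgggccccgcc
Of the 10 matched genes that passed 2-fold toward skin (defined below), 5 held ERSE or ERSE-II. Of the other 21 matched genes, 5 did as well.

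Together the 36 genes took 0.629% of UMIs in skin cells (0.625 to 0.633) and 0.3997% in lung cells (0.397 to 0.402). The difference lay in chaperones and disulfide isomerases and was small or opposite in translocon subunits and PERK outputs. For calls, log2 of (CPM + 5) in skin over lung was taken for genes that reached 20 CPM in skin or in lung, a scale that understates differences of low genes. Of the 36 genes 31 reached 20 CPM, and Hyou1, Syvn1, Ern1, Eif2ak3 and Trib3 did not. Past 2-fold toward skin were 11 of the 31, and 0 were past 2-fold toward lung. Among all 5687 genes at that level, 14.9% passed 2-fold toward skin and 5.05% toward lung. The median log2 ratio of the 31 was 0.80, beside 0.36 for all genes. Median-of-ratios scaling left 7 of the 31 past 2-fold toward skin and 0 toward lung, beside 8.53% and 9.04% of all genes, so that skin took 48.5% of all calls in place of 74.8%. Totals without mitochondrial and ribosomal protein genes likewise left 7 and 0, beside 8.69% and 9.09% of all genes. Relative to the median of all genes, the median of the 31 was higher by 0.44 with library totals and by 0.48 with median-of-ratios scaling. The latter was taken over 5607 genes. That scaling shifts the ratios of all genes by the same factor, so the nearly equal difference is given by construction and is no separate check.

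**Figure D1:**
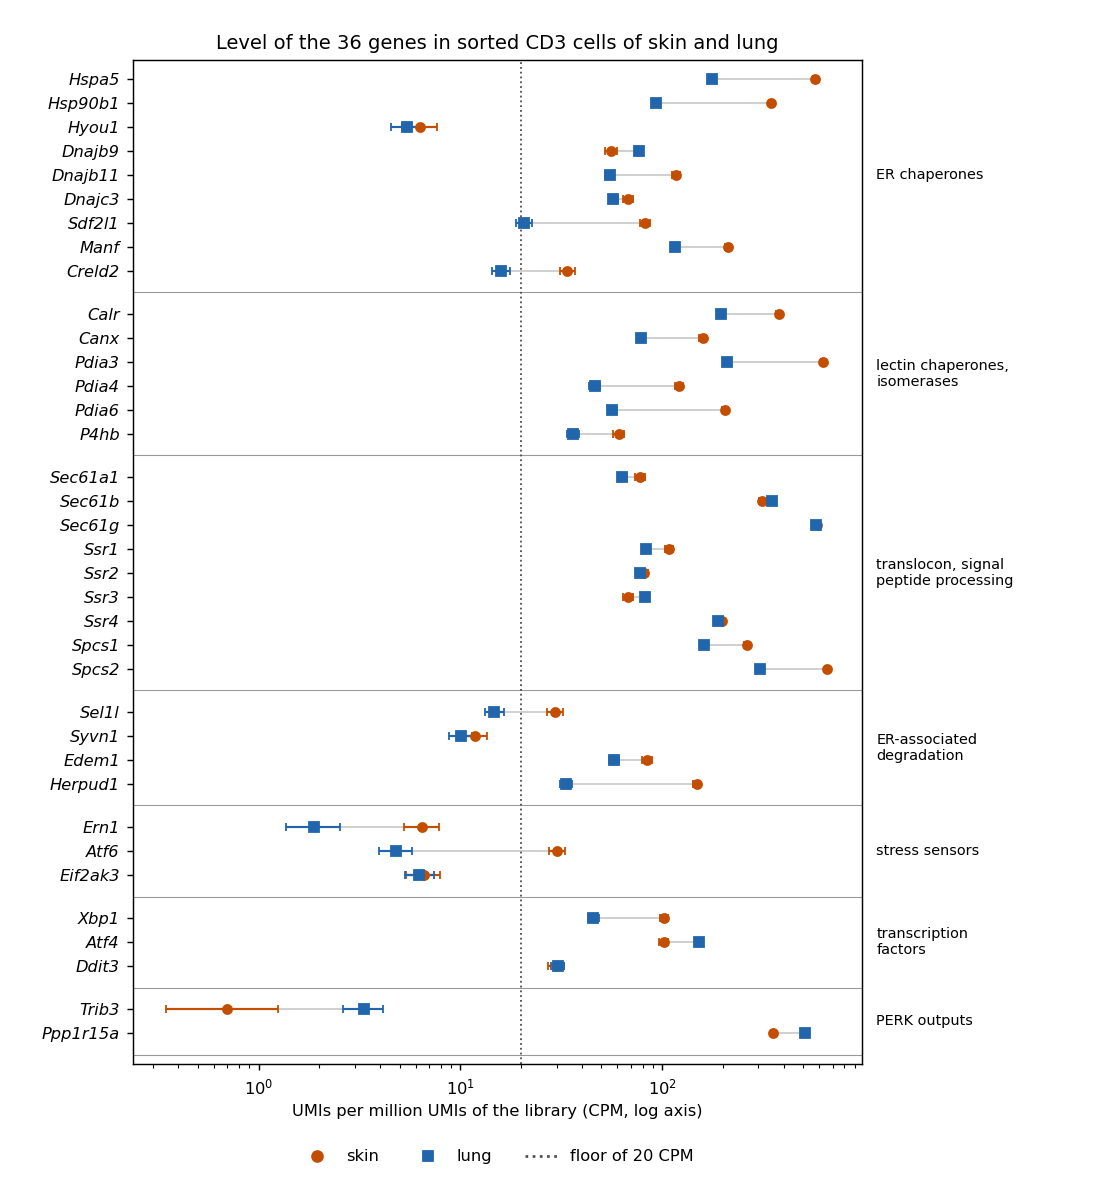
CPM of each of the 36 genes (log axis) in skin cells (circles) and lung cells (squares), grouped by role, with bars for 95% counting intervals and a dotted line at 20 CPM. Skin lies to the right of lung for all chaperones but Dnajb9 and for all lectin chaperones and isomerases, while Sec61b, Ssr3, Atf4, Trib3 and Ppp1r15a lie further right in lung.

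The chaperones that hold nascent proteins were the first group. Hspa5 encodes BiP, the HSP70 of the ER lumen and the chaperone that keeps the stress sensors inactive (ENSMUSG00000026864, chromosome 2, 34771970 to 34777547, plus strand, GRCm38, positions counted from 1). It stood at 571 CPM in skin (560 to 583) and 177 CPM in lung (172 to 182), a ratio of 3.23 (3.11 to 3.35). Hsp90b1 encodes GRP94, the HSP90 of the ER and a chaperone of integrins and Toll-like receptors (ENSMUSG00000020048, chromosome 10, 86690209 to 86705509, minus strand). It stood at 348 CPM in skin and 92.8 CPM in lung, a ratio of 3.74 (3.56 to 3.94). Sdf2l1, a partner of BiP and its J proteins (ENSMUSG00000022769, chromosome 16, 17130138 to 17132383, minus strand), stood at 82.0 CPM in skin and 20.7 CPM in lung, a ratio of 3.96 (3.57 to 4.41). Each of these intervals lies far from 1, and each gene stayed over 2-fold in all 18 other settings of scaling, floor, pseudocount and cell set.

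The J proteins, which send substrates to BiP, differed among themselves. Dnajb11, which encodes ERdj3, stood at 117 CPM in skin and 55.0 CPM in lung, a ratio of 2.12 (1.98 to 2.28). Dnajc3, which encodes p58IPK, also an inhibitor of PERK, stood at 67.6 CPM in skin and 57.4 CPM in lung, a ratio of 1.18 (1.09 to 1.28). Dnajb9, which encodes ERdj4, a J protein that represses IRE1, was the one chaperone lower in skin, at 55.9 CPM against 77.2 CPM in lung, a ratio of 0.73 (0.67 to 0.79). The median log2 of all genes was above 0, so a ratio near 1 stands below the middle of all genes: 39.4% of genes had a lower log2 ratio than Dnajc3 and 11.4% a lower one than Dnajb9. Dnajc3 lies at −0.16 on the log2 scale with median-of-ratios scaling. Manf, an ER-resident factor that binds BiP and can be secreted, stood at 212 CPM in skin and 116 CPM in lung, a ratio of 1.82, but it overlaps Rbm15b on the same strand, so its counts are uncertain. Creld2, a secreted ER stress gene, stood at 33.9 CPM in skin and 15.9 CPM in lung, and its ratio of 2.14 fell under 2-fold on the scale with 5 CPM added. Hyou1, the nucleotide exchange factor GRP170, was low in both, at 6.32 CPM in skin and 5.46 CPM in lung, with counting intervals that overlap.

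Lectin chaperones hold glycoproteins while isomerases exchange their disulfide bonds, and all 6 of these genes had a ratio over 1.6. Pdia3, the ERp57 isomerase that works with calreticulin and in loading of MHC class I (ENSMUSG00000027248, chromosome 2, 121413775 to 121438687, plus strand), stood at 624 CPM in skin (612 to 637) and 209 CPM in lung (204 to 215), a ratio of 2.98. Pdia6, the P5 isomerase that also binds IRE1 (ENSMUSG00000020571, chromosome 12, 17266545 to 17284770, plus strand), stood at 204 CPM in skin and 56.6 CPM in lung, a ratio of 3.61 (3.38 to 3.85). Pdia4, the ERp72 isomerase, stood at 121 CPM in skin and 46.2 CPM in lung, a ratio of 2.62. The calnexin and calreticulin genes lay near 2-fold without passing it. Calr stood at 377 CPM in skin and 196 CPM in lung, and Canx at 159 CPM in skin and 78.2 CPM in lung, log2 0.93 and 0.97. P4hb, the first described disulfide isomerase and a subunit of prolyl 4-hydroxylase, stood at 60.8 CPM in skin and 36.3 CPM in lung, a ratio of 1.68. Summed, the chaperones gave 1494 CPM in skin and 618 CPM in lung, 2.42-fold, and the lectin chaperones and isomerases 1546 CPM in skin and 623 CPM in lung, 2.48-fold.

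The translocon group kept a different ratio. Its summed level was 2346 CPM in skin and 1888 CPM in lung, 1.24-fold, with a median log2 of 0.07, below the 0.36 of all genes. The pore subunits were close: Sec61a1 stood at 77.6 CPM in skin and 63.6 CPM in lung, Sec61b at 311 CPM in skin and 351 CPM in lung, and Sec61g at 582 CPM in skin and 577 CPM in lung. For Sec61g the ratio was 1.01 (0.982 to 1.04). The subunits of the TRAP complex, which helps some signal sequences open the pore, ranged from a ratio of 0.83 (Ssr3) to 1.31 (Ssr1), with Ssr2 at 1.05 and Ssr4 at 1.05. Under median-of-ratios scaling all 7 of these Sec61 and Ssr genes had a log2 ratio below 0, from −0.63 (Ssr3) to −0.02 (Ssr1). The signal peptidase subunits stood apart from them. Spcs2 stood at 656 CPM in skin and 304 CPM in lung, a ratio of 2.16 (2.09 to 2.22), and Spcs1 at 263 CPM in skin and 162 CPM in lung, a ratio of 1.63. Spcs2 was the one gene of the group past 2-fold.

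Genes of ER-associated degradation return misfolded proteins to the cytosol. Herpud1, which encodes HERP, a membrane protein of the retrotranslocation complex (ENSMUSG00000031770, chromosome 8, 94386438 to 94395377, plus strand), stood at 148 CPM in skin (142 to 154) and 33.5 CPM in lung (31.2 to 35.9). Its ratio of 4.43 (4.08 to 4.80) placed it above 95.9% of all genes. The ubiquitin ligase gene Syvn1 (HRD1) stood at 11.8 CPM in skin and 10.0 CPM in lung, with intervals that overlap. Its partner Sel1l stood at 29.4 CPM in skin and 14.8 CPM in lung, a ratio of 1.99, and Edem1, which marks misfolded glycoproteins by mannose trimming, at 84.3 CPM in skin and 57.7 CPM in lung, a ratio of 1.46. Herpud1 therefore had a wider ratio than the ligase with which it works.

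The sensor genes were low, and their ratios rest on few UMIs. Atf6 (ENSMUSG00000026663, chromosome 1, 170704674 to 170867771, minus strand) gave 477 UMIs in skin and 112 in lung, 30.2 CPM in skin (27.5 to 33.0) and 4.78 CPM in lung (3.94 to 5.75), a ratio of 6.31 (5.13 to 7.82). Ern1, which encodes IRE1α, gave 102 UMIs in skin and 44 in lung, 6.45 CPM in skin and 1.88 CPM in lung, a ratio of 3.43 (2.39 to 5.01), under the floor for a call. Eif2ak3, which encodes PERK, gave 104 UMIs in skin and 147 in lung, 6.57 CPM in skin and 6.27 CPM in lung, a ratio of 1.05 (0.807 to 1.36). The ratios of the sensors thus fell in the order Atf6, Ern1, Eif2ak3, and the intervals of Eif2ak3 and the other sensors do not overlap.

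The transcription factors divided in the same way. Xbp1 (ENSMUSG00000020484, chromosome 11, 5520659 to 5525893, plus strand), the factor downstream of IRE1, stood at 102 CPM in skin and 45.6 CPM in lung, a ratio of 2.24 (2.07 to 2.42). Atf4, the factor downstream of PERK, stood at 102 CPM in skin and 152 CPM in lung, a ratio of 0.67 (0.63 to 0.71). Ddit3, which encodes CHOP, stood at 29.9 CPM in skin and 30.4 CPM in lung, a ratio of 0.98 (0.87 to 1.11). A second gene model on the same strand overlaps Ddit3 in the lung list alone. It had 0 UMIs, and the Ddit3 count of lung is uncertain. Ppp1r15a, which encodes GADD34, the phosphatase subunit that ends the PERK signal, stood at 355 CPM in skin (345 to 364) and 508 CPM in lung (499 to 517), a ratio of 0.70 (0.68 to 0.72). Trib3, a late ATF4 and CHOP target, gave 11 UMIs in skin and 78 in lung, and was 4.79-fold higher in lung with an interval of 2.53 to 9.98. Atf4, Ppp1r15a and Trib3 had a log2 ratio below 0 in all 18 other settings. Regulation of ATF4 is largely translational, and its protein was not measured.

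**Figure D2:**
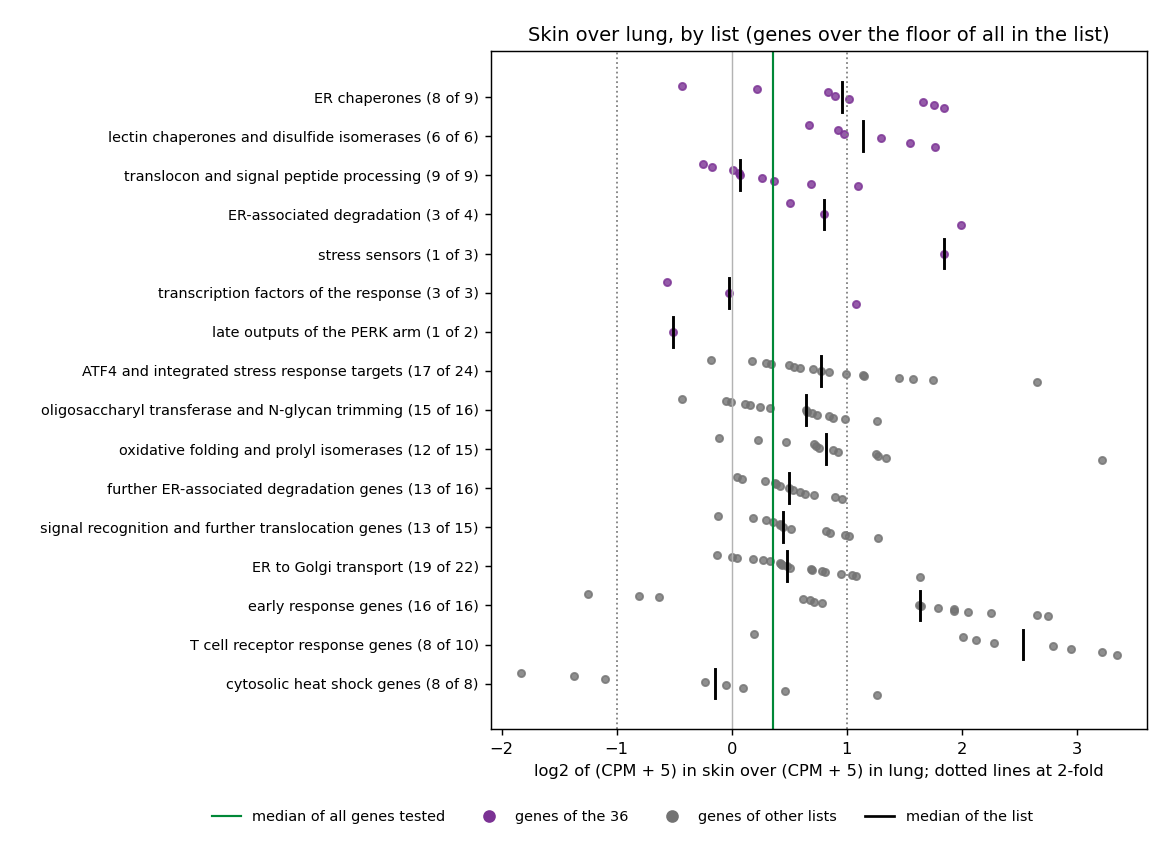
Log2 of (CPM + 5) in skin over lung for each gene that reached 20 CPM, one row per list, with black bars for list medians, a green line for the median of all genes and dotted lines at 2-fold. Chaperones and isomerases centre to the right of the green line (medians 0.96 and 1.14), translocon genes to its left (0.07), while the 6 further stress and secretory lists have medians from 0.45 to 0.82.

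Further genes of the same pathways were counted from lists of named genes. Of 17 targets of ATF4 and the integrated stress response at 20 CPM, 6 passed 2-fold toward skin and 0 toward lung, beside 14.9% and 5.05% of all genes. Their median log2 was 0.78 beside 0.36 for all genes, and 0.39 beside −0.0011 for the same 5687 genes with median-of-ratios scaling. Cebpb, a bZIP factor, stood at 591 CPM in skin and 172 CPM in lung, Phgdh, which starts serine synthesis, at 162 CPM in skin and 55.7 CPM in lung, and Aars, the alanyl-tRNA synthetase, at 43.5 CPM in skin and 11.3 CPM in lung. Atf3, also an early response gene, stood at 76.9 CPM in skin and 7.98 CPM in lung. Asns, the asparagine synthetase gene, gave 173 UMIs in skin and 13 in lung, under the floor in both. The other 11 of the 17 lay within 2-fold.

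Among genes of oxidative folding and prolyl isomerization, 4 of 12 passed 2-fold toward skin and 0 toward lung (median log2 0.82). Ero1l, the ER oxidase that recharges disulfide isomerases and is also induced by hypoxia, had the widest ratio, at 169 CPM in skin and 13.7 CPM in lung, 12.4-fold, with an interval of 11.02 to 13.9. Prdx4, an ER peroxiredoxin, stood at 79.0 CPM in skin and 28.2 CPM in lung, Fkbp2 at 93.6 CPM in skin and 35.8 CPM in lung, and Tmx1 at 99.1 CPM in skin and 38.7 CPM in lung. In the oligosaccharyl transferase and glycan trimming list 1 of 15 passed 2-fold toward skin, Rpn1, at 56.4 CPM in skin and 20.5 CPM in lung (median log2 0.64). In the list of further degradation genes it was 0 of 13 (median 0.50). In the signal recognition and translocation list it was 2 of 13, Sec11c and Tram1 (median 0.45), and in ER to Golgi transport 3 of 19, Lman1, Copb1 and Copb2 (median 0.48), shares close to the 14.9% of all genes. With median-of-ratios scaling the medians of these lists were 0.45 for oxidative folding, 0.27 for glycan trimming, 0.10 for degradation, 0.06 for signal recognition and 0.09 for transport, beside −0.0011 for all genes. Sec11c, the catalytic subunit of signal peptidase, stood at 328 CPM in skin and 133 CPM in lung, beside Spcs2 above. Lman1, the cargo receptor ERGIC-53, stood at 47.8 CPM in skin and 11.9 CPM in lung. In these 4 lists 0 genes passed 2-fold toward lung.

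Per cell the difference was a shift of most cells. The 36 genes took a median of 0.590% of a cell's UMIs in skin, with 10th and 90th percentiles of 0.354% and 0.917%, and a median of 0.376% in lung, with percentiles of 0.213% and 0.579%. The skin median lies just above the 90th percentile of lung. To compare shares of cells at equal depth, each cell was thinned to 1000 UMIs (76 lung cells and 0 skin cells held fewer). Hspa5 then gave a UMI in 39.4% of skin cells and 16.1% of lung cells (63.3% and 36.004% before thinning). Herpud1 did so in 13.8% of skin cells and 3.07% of lung cells (27.6% and 8.28% before thinning). Sec61g, the translocon subunit, did so in 42.8% of skin cells and 43.6% of lung cells (68.9% and 73.1% before thinning). Ppp1r15a did so in 30.7% of skin cells and 39.5% of lung cells (52.7% and 68.0% before thinning).

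**Figure D3:**
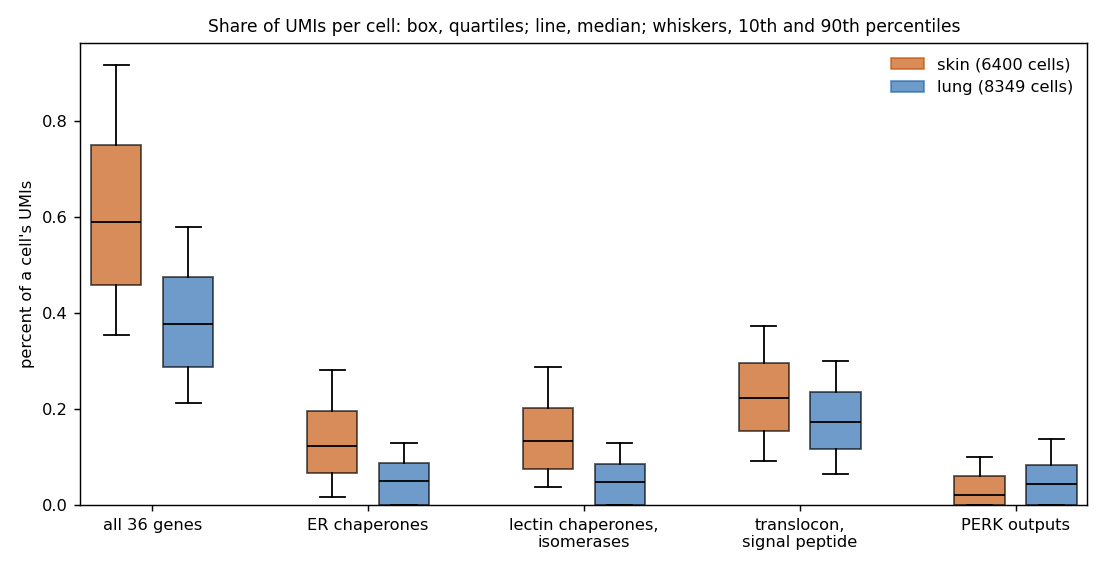
Percent of a cell's UMIs taken by all 36 genes and by 4 of the groups, in 6400 skin cells and 8349 lung cells, with boxes for quartiles, lines for medians and whiskers for the 10th and 90th percentiles. Each cell's total includes ribosomal protein UMIs. For chaperones (0.125% in skin, 0.0504% in lung) and for lectin chaperones with isomerases (0.134% in skin, 0.0481% in lung) the skin median lies above the lung box, for the translocon (0.223% in skin, 0.173% in lung) it lies inside, and the PERK outputs have the higher median in lung.

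Other cell types and cell states moved with the tissue. Summed fibroblast markers stood at 2142 CPM in skin and 78.0 CPM in lung (6 of 6 markers past 2-fold toward skin), macrophage and dendritic cell markers at 1047 CPM in skin and 699 CPM in lung, and lung epithelium markers at 1.201 CPM in skin, with 4 of 5 at 0, and 3772 CPM in lung. Plasma cell markers stood at 38.4 CPM in skin, with Tnfrsf17 at 0, and 29.8 CPM in lung. B cell markers stood at 48.4 CPM in skin and 19.1 CPM in lung, endothelial markers at 52.9 CPM in skin and 208 CPM in lung, keratinocyte markers at 28.5 CPM in skin and 7.60 CPM in lung, and mast cell markers at 8.41 CPM in skin and 2.56 CPM in lung. Without the cells that had 3 or more UMIs of any one such list, 4851 skin and 7245 lung cells were left. In these the 36 genes took 0.611% of UMIs in skin and 0.386% in lung, and 12 of 31 passed 2-fold toward skin and 0 toward lung, beside 16.2% and 4.87% of all genes. The 283 skin cells with 3 or more fibroblast UMIs had 623 CPM of Hspa5, beside 553 CPM in skin cells with no such markers of any type. A wider share, 22.0% of skin cells and 4.20% of lung cells, had 3 or more UMIs of the macrophage and dendritic cell list. For the lung epithelium list these shares were 0.031% of skin cells and 9.32% of lung cells.

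Early response genes took 2.11% of UMIs in skin and 0.654% in lung, and 9 of 16 passed 2-fold toward skin and 1, Rhob, toward lung. T cell receptor response genes summed to 3418 CPM in skin and 507 CPM in lung, with 7 of 8 past 2-fold toward skin and 0 toward lung. In the cells at or below their library's median share of early response UMIs, 10 of the 31 passed 2-fold toward skin and 0 toward lung, beside 15.3% and 4.49% of all genes. In cells low in T cell receptor response UMIs it was 10 and 0 as well, beside 15.0% and 4.78%. Each cut was at the library's own median, so these skin and lung cells were not matched in either share. For T cell receptor response genes the 10th percentile of skin cells, 0.133%, lay above the 90th of lung cells, 0.130%. For early response genes the 10th percentile of skin cells, 1.07%, lay above the 75th of lung cells, 0.861%. In cells with a UMI of Ccr7, a receptor gene of central T cells, 11 of 30 passed 2-fold toward skin and 0 toward lung. Of all genes 14.8% and 3.68% did. Hspa5, Hsp90b1, Sdf2l1, Pdia3, Pdia6, Herpud1 and Atf6 passed 2-fold in all 18 other settings, Spcs2 in 16, Pdia4 in 15, Xbp1 in 13 and Dnajb11 in 10.

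The relation to the cytokine genes was described within each library. Il10, which encodes an anti-inflammatory cytokine, gave a UMI in 1979 skin cells (30.9%) and 95 lung cells (1.14%). Il13, a type 2 cytokine gene, did so in 1303 skin cells (20.4%) and in 0 of 8349 lung cells, which allows a share of cells with a UMI of up to 0.0359% by 3 counts of the total and up to 0.0442% by the exact interval. Areg, the gene of the EGF receptor ligand amphiregulin, did so in 4446 skin cells (69.5%) and 488 lung cells (5.85%). After thinning, the shares in skin cells with CD3 and in the 67 skin cells without it were 19.2% and 17.9% for Il10, 12.1% and 5.97% for Il13, and 52.0% and 35.8% for Areg (medians of 2078.5 and 1300 UMIs in shared genes before thinning). For Il10 the share in cells without CD3 UMIs is close to that in cells with them, and the part of free RNA in the groups with a UMI was not tested. Cells with a UMI were also deeper, with medians of 2296 against 1995 UMIs for Il10, 2318 against 2019 for Il13 and 2196 against 1862 for Areg.

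In skin the folding genes were nearly level between cells with and without each cytokine. Past 1.5-fold were 0 of 31 genes in either direction for Il10, Il13 and Areg. Of all genes 0.688% were higher and 0.199% lower past 1.5-fold with Il10, 0.525% and 0.579% with Il13, and 0.286% and 1.82% with Areg. The split is by detection, and at 1000 UMIs per cell the share with a UMI fell from 30.9% to 19.2% for Il10. For Il13 it fell from 20.4% to 12.1%. Cells without a UMI can therefore include cells that hold the RNA, which can draw these ratios toward 1. The summed level of the 36 genes was 1.04 times that of other cells with Il10 (1.03 to 1.06), 1.06 times with Il13 (1.04 to 1.07) and 1.05 times with Areg (1.04 to 1.07). Single genes ranged from 0.93 (Dnajb9) to 1.19 (Atf6) with Il10. With Il13 they ranged from 0.85 (Dnajb9) to 1.37 (Creld2), and with Areg from 0.76 (Ddit3) to 1.19 (Herpud1). Of the genes with the widest tissue ratios, Atf6 stood at 33.7 CPM in skin cells with Il10 and 28.2 CPM in those without, 1.19 times (0.99 to 1.44), and Herpud1 at 144 CPM with Il10 and 150.3 CPM without, 0.96 times (0.88 to 1.04). Sdf2l1 had a ratio of 1.11 (0.99 to 1.25), Hsp90b1 of 1.15 (1.09 to 1.22) and Pdia6 of 1.14 (1.06 to 1.23) with Il10, and Hspa5 of 1.019 (0.98 to 1.06).

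Some genes lay apart from 1 by their counting intervals while staying within 1.5-fold. Pdia6 stood at 237 CPM in skin cells with Il13 and 194 CPM in those without, a ratio of 1.22 (1.13 to 1.32). Creld2 stood at 42.7 CPM with Il13 and 31.3 CPM without (1.13 to 1.65 for the ratio). Herpud1 stood at 155 CPM with Areg and 130 CPM without, a ratio of 1.19 (1.08 to 1.31). Ddit3 stood at 27.6 CPM with Areg and 36.2 CPM without, a ratio of 0.76 (0.63 to 0.93). Of the ATF4 targets, Nupr1, a stress-induced chromatin protein gene, was past 1.5-fold, at 20.6 CPM with Areg and 44.3 CPM without.

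**Figure D4:**
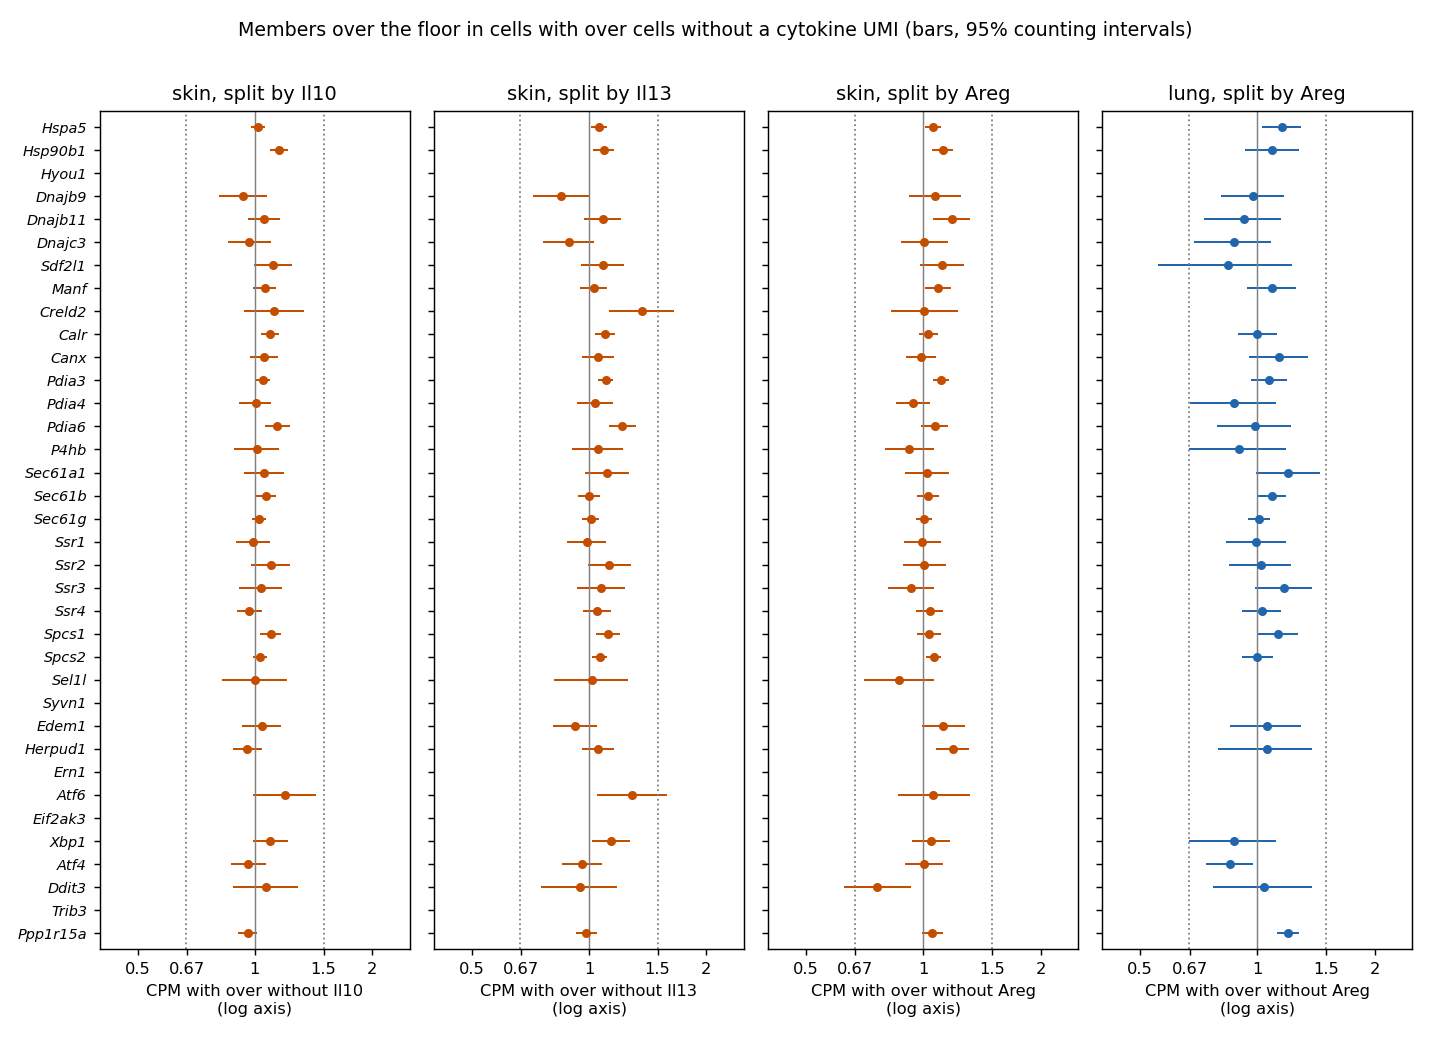
Ratio of CPM in cells with over cells without a UMI of the named cytokine gene (log axis), for each gene at 20 CPM or more in that split, with 95% counting intervals and dotted lines at 1.5-fold in either direction. All points lie within the dotted lines in the 3 skin panels and in the lung Areg panel.

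In lung cells with an Areg UMI 0 of 28 genes passed 1.5-fold in either direction, beside 3.29% of all genes higher and 0.853% lower. Hspa5 stood at 202 CPM with Areg and 175 CPM without, a ratio of 1.15 (1.03 to 1.29), and Ppp1r15a at 599.9 CPM with Areg and 501 CPM without, a ratio of 1.197 (1.12 to 1.28). Atf4 stood at 131 CPM with Areg and 154 CPM without, a ratio of 0.85 (0.74 to 0.98). T cell receptor response genes were 1.44 times as high with Areg (1.36 to 1.53). Among the ATF4 targets Cebpb was past 1.5-fold, at 304 CPM with Areg and 162 CPM without, and so was Nupr1, at 29.8 CPM with Areg and 15.9 CPM without.

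The 95 lung cells with an Il10 UMI were few, with 385545 UMIs in all. Of 29 genes 3 were past 1.5-fold higher, beside 19.2% of all genes, and 0 lower, beside 4.74%, a share of members below that of all genes. These were Hsp90b1, at 148 CPM with Il10 and 91.9 CPM without, Ssr1, at 135 CPM with Il10 and 82.1 CPM without, and Sdf2l1, from 17 UMIs, at 44.1 CPM with Il10 and 20.3 CPM without. The median log2 was 0.25, beside 0.21 for all genes. The cells with Il10 had a median of 3414 UMIs against 2365, and a ribosomal protein share of 28.7% against 38.4%. When cells were compared within 5 bins of UMI total, 0 of the 29 passed 1.5-fold in either direction, and the median log2 was 0.093, beside 0.16 for all genes. The share of all genes past 1.5-fold is not given for these bins, so the 0 cannot be set beside it.

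Within skin, cells were also ordered by the number of cytokine UMIs. The summed chaperones and isomerases stood at 2983 CPM in cells with no Il13 UMI, 3122 CPM with 1, 3379 CPM with 2 to 3, 3198 CPM with 4 to 7 and 3869 CPM (3599 to 4154) in the 63 cells with 8 or more. With no Areg UMI they stood at 2895 CPM and then at 2952, 3021, 3170 and 3307 CPM for the same steps. With no Il10 UMI they stood at 2972 CPM, with 4 to 7 at 3351 CPM, and with 8 or more at 3135 CPM. The translocon genes ranged from 2297.5 to 2394 CPM over the Areg steps, from 2320 to 2460 CPM over the Il13 steps and from 2315 to 2648 CPM over the Il10 steps. Depth and T cell receptor response genes moved along with these steps: over the Il13 steps the median was 2019 UMIs at 0 and 2558 at 8 or more, and the response genes summed to 3389 CPM at 0 and 4644 CPM at 8 or more. Their part in the steps was not tested. The 1274 skin cells with no UMI of Il10, Il13 or Areg had 5953 CPM of the 36 genes, against 3974 CPM in the 7782 such lung cells. Between these cells 11 of the 31 passed 2-fold toward skin and 0 toward lung, beside 14.9% and 4.31% of all genes. A cell without a UMI can still hold the RNA. Thinning to 1000 UMIs lowered the share of skin cells with an Areg UMI from 69.5% to 52.0%. The part of the cytokine genes in the tissue difference was not tested.

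**Figure D5:**
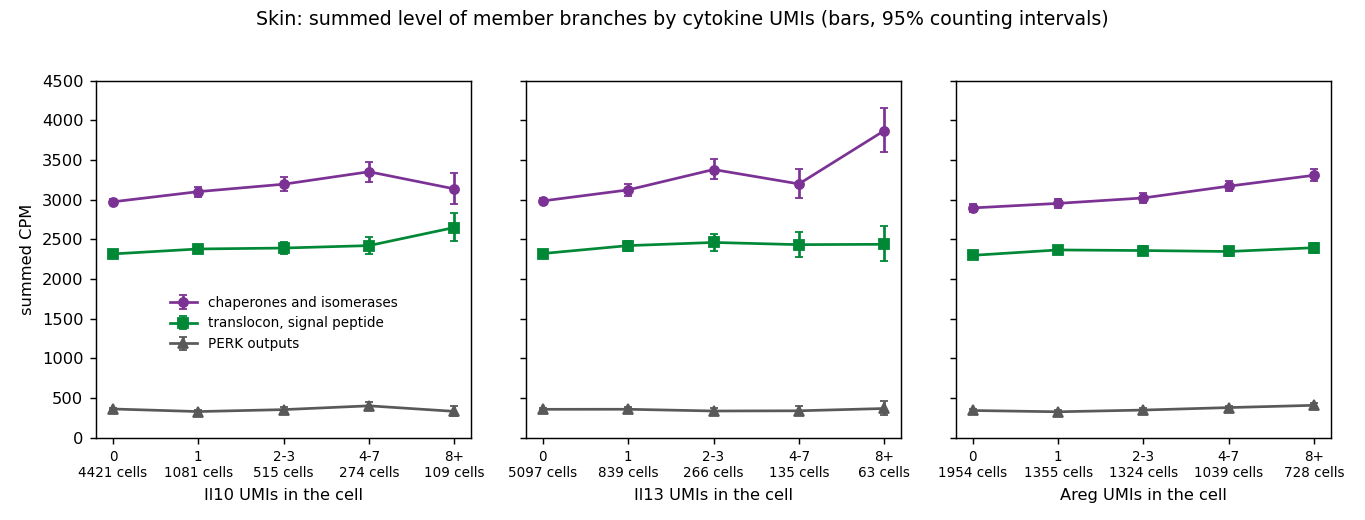
Summed CPM of chaperones with isomerases, translocon genes and PERK outputs in skin cells by their number of Il10, Il13 or Areg UMIs, with 95% counting intervals and the number of cells under each step. Chaperones and isomerases lie highest in the 63 cells with 8 or more Il13 UMIs, at 3869 CPM. Over the Il10 steps the translocon line is highest at 8 or more, at 2648 CPM, where chaperones and isomerases are at 3135 CPM.

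Hspa5 and the other folding genes were detected in the same cells in part. In skin cells thinned to 1000 UMIs, those with a Hspa5 UMI (2521 cells) had 1774 CPM of lectin chaperones and isomerases, against 1361 CPM in those without (3879 cells), a ratio of 1.30 (1.25 to 1.36). The ratio was 1.59 for Pdia6 (1.42 to 1.78), 1.44 for Calr and 1.33 for Sdf2l1. In lung the lectin chaperones and isomerases had a ratio of 1.12 (1.04 to 1.21) between 1332 cells with a Hspa5 UMI and 6941 without. For the translocon genes the ratio was 1.05 in skin and 1.00 in lung. Over 6400 skin cells the summed chaperones and the summed lectin chaperones and isomerases correlated with Pearson's r = 0.27 and Spearman's rho = 0.19, and over 8273 lung cells with r = 0.07 and rho = 0.05. Without cells carrying markers of other types the values were r = 0.26 in skin and 0.05 in lung. Ppp1r15a gave 5611 of the 5622 UMIs of PERK outputs in skin and 11904 of 11982 in lung. PERK outputs correlated with early response genes with r = 0.13 in skin and 0.18 in lung. With transcription factors of the response r was 0.0038 in skin and 0.019 in lung, and with chaperones −0.0091 and 0.0010. The part of PERK and of the early response in Ppp1r15a levels was not tested. All these values are descriptions over cells of 1 library each, which share depth after thinning, and the lower counts of lung limit r there.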

How the data were processed

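Single-cell libraries of skin and lung cells were made with the 10x Single Cell 3' v2 kit, 1 library per tissue. The authors deposited, per the submitters' processing notes, UMI counts per gene and barcode made with Cell Ranger on mm10, and the skin and lung gene lists differ (27998 and 31053 genes). A second lung matrix holds barcodes that are all in the first, and served as an alternative. Gene and barcode lists were deposited with the matrices. Raw counts were used with Python 3.11.15, numpy 2.4.6, scipy 1.17.1, pandas 2.3.3 and matplotlib 3.10.9.

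Cells needed 200 genes, at most 10% mitochondrial UMIs and 1 CD3 UMI, which removed 1, 133 and 67 skin cells and 0, 89 and 292 lung cells. No doublet caller was run, and leaving out the 6% deepest cells was an alternative. UMIs were summed over cells and scaled to CPM over shared genes. Calls used log2(CPM + 5) for genes at 20 CPM or more in either group, 2-fold between tissues and 1.5-fold between cells with and without a cytokine UMI. With 1 library per group no test was run. Intervals are exact (Poisson or Clopper-Pearson, 95%), and the 3-count limit is 0.190 CPM in skin and 0.128 CPM in lung. Calculations were checked on simulated counts. The 36 genes, the further lists and the cytokine splits were chosen with earlier results of these data known. Named genes are all 36, the sort and cytokine genes, up to 4 genes with the widest tissue ratio of each further list, the genes past 1.5-fold in a cytokine split and up to 2 with the widest ratio of each list there. Asns, Rhob and Xist were named after their values were seen. Promoters and motif counts came from RefSeq.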

Additional observations from a re-analysis of the deposited data

How the results depend on the processing

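No paired analysis was possible because each tissue has 1 library, and for the same reason no replicate could be left out. The count past 2-fold toward skin was 7 with median-of-ratios scaling and 7 with totals without mitochondrial and ribosomal protein genes, in place of 11, and stayed within 1.5 times of 11 in the other 16 settings. The ratio of the 36 genes' share of UMIs, 1.574 for all CD3 cells, was 1.198 without mitochondrial and ribosomal protein genes in the totals. Such totals raised the share in skin from 0.629% to 0.808% and in lung from 0.3997% to 0.675%. The lung total thus lost the larger part. The ratio was 1.6205 in cells with a Foxp3 UMI, 1.6156 without the 6% deepest cells and 1.5962 in thinned cells. In settings chosen after seeing the data it was 1.5187 in cells with an Areg UMI, 1.498 in cells with no cytokine UMI, 1.527 in cells with a Ccr7 UMI and 1.5493 in cells low in T cell receptor response genes. Lung Areg gave 1 gene higher and 1 lower in thinned cells, in place of 0 and 0. The counts for lung Areg and lung Il10 in these settings stand without the share of all genes. With all CD3 cells, 19.2% of all genes were past 1.5-fold higher with lung Il10. Lung cells with Il10 numbered 66 without markers of other types, 35 when low in early response genes and 50 when thinned. The median log2 of members there was 0.12, 0.33 and 0.31, beside 0.25, 0.25 and 0.43 for all genes. For lung Il10, higher genes numbered 5 at a floor of 5 CPM, 5 with no floor, 5 without cells with markers of other types, 7 in cells low in early response genes, 10 in thinned cells and 0 with 5 depth bins, in place of 3. Lower genes there numbered 1 without mitochondrial and ribosomal protein genes, 1 with 2 CD3 UMIs, 2 without cells of other types, 3 without the deepest cells, 6 in thinned cells and 2 for a split at 2 UMIs, in place of 0. In thinned lung cells Hsp90b1 and Ssr1 turned, at log2 −0.086 and −0.30. The group with Il10 then held 50 cells of 1000 UMIs each, so these values rest on few UMIs of either gene. The cause was not tested. Among single genes by tissue 151 values moved by more than their counting interval and 497 did not, and by cytokine 70 moved, 2 reversed and 2448 did not. Depth limits the sensors, Trib3 and the 95 lung cells with Il10.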

Other observations

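Heat shock genes of the cytosol did not follow the ER chaperones. Their sum was 4449 CPM in skin and 4484 CPM in lung. Of 8 genes 1 passed 2-fold toward skin and 3 toward lung, beside 14.9% and 5.05% of all genes. Their median log2 was −0.14, beside 0.36 for all genes. Dnaja1, a cytosolic J protein gene, stood at 727 CPM in skin and 300 CPM in lung. The inducible HSP70 gene Hspa1a stood at 133 CPM in skin and 353 CPM in lung, its neighbour Hspa1b at 13.6 CPM in skin and 61.1 CPM in lung, and the J protein gene Dnajb1 at 147 CPM in skin and 320 CPM in lung. Hspa1a and Hspa1b are near-identical, so the division of counts between them is uncertain. Tissue digestion was part of both preparations, and its part in these levels was not tested.

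In cells without CD3 UMIs, 67 in skin and 292 in lung, the summed level kept its direction with a smaller ratio, while single genes differed. The 36 genes stood at 6606 CPM in skin and 5022 CPM in lung, a ratio of 1.32 (1.21 to 1.43), beside 1.574 in cells with CD3. The chaperones had a ratio of 1.80 (1.52 to 2.12), beside 2.42 with CD3, and the lectin chaperones and isomerases of 1.37 (1.16 to 1.62), beside 2.48 with CD3. Hspa5 stood at 758 CPM in skin and 264 CPM in lung, a ratio of 2.87 (2.18 to 3.75). Pdia6 had a ratio of 1.096 (0.67 to 1.72), Canx of 0.76 (0.41 to 1.32) and P4hb of 0.88 (0.40 to 1.72), intervals that include 1.

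In the 95 lung cells with an Il10 UMI, 6 of 15 targets of ATF4 and the integrated stress response were past 1.5-fold higher and 1 lower, beside 19.2% and 4.74% of all genes. Cebpb stood at 537 CPM with Il10 and 166 CPM without. The cells with Il10 had a median of 3414 UMIs against 2365. Without cells with markers of other types, 66 of the 95 were left. The part of depth and of other cell types in these counts was not tested.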
